A study of Gossypium hirsutum with 12 samples.

Results

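In total, 3 genes of structural cell wall proteins were described in elongating cotton fiber: the proline-rich proteins PRP3 (Gorai.005G224900) and PRP5 (Gorai.009G184400) and an arabinogalactan protein (Gorai.006G119900). They are 3 of the 37500 genes in the deposited table and were chosen by the ratio of their mean at 12 d post-anthesis (DPA) to their mean at 0 DPA, which earlier results of these data had shown to be large. Their stage means and ratios are therefore a description and were not tested. The genes were found by ID, and their names come from the upland cotton records that the study's supplementary tables pair with gene IDs of Gossypium raimondii, the diploid cotton whose genome served as the reference.

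The series holds 12 RNA-seq libraries of upland cotton (Gossypium hirsutum), 1 per line and stage, with 6 libraries at 12 DPA and 6 at 0 DPA. The same 6 lines were sampled at both stages: brown (BCF), green (GCF) and white (WCF) cotton fiber, and the transgenic lines 5#, 6# and 24#, labelled as brown, green and white. According to the study's text, these transgenic lines were progeny of a single brown cotton plant that carried a hairpin against GhCHI-1 (chalcone flavanone isomerase, an enzyme of flavonoid synthesis), driven by the cauliflower mosaic virus promoter, which is active in most tissues. The labels call the tissue cotton fiber, while the methods name both ovules and fibers, so the share of fiber cells in the 0 DPA libraries is not known. In such bulk samples, fewer fiber cells and less RNA per fiber cell cannot be told apart. The table gives the authors' mean for each stage over all lines, so the spread between lines at 12 DPA is not known and wild-type and transgenic lines could not be compared.

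A cotton fiber is a single cell of the seed coat that grows out from the ovule surface around the day of flowering and then elongates for weeks. Its primary wall is a network of cellulose, xyloglucan and pectin in which structural proteins are embedded. Proline-rich proteins (PRPs) are secreted proteins with repeated proline motifs that can be cross-linked into the wall. Arabinogalactan proteins carry large arabinose- and galactose-rich sugar chains, are often anchored to the outer face of the plasma membrane, and in cotton include fasciclin-like members (FLAs), which have been tied to fiber elongation.

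All values below are normalized counts, that is, read counts divided by a size factor for each library, averaged by the authors over a stage. They are not divided by gene length, so levels are best compared between stages within a gene. Percentiles, ranks, shares and nearest genes below order or add genes by counts. Counts depend on gene length too, so these are not an order of expression. Size factors recovered from the means ranged between 0.770 and 1.30 at 12 DPA and between 0.487 and 1.67 at 0 DPA. A size factor follows the gene counts of a library and is not its number of sequenced reads, so the order of size factors is not an order of depth. Gene means summed to 4870048 at 12 DPA and 3044867 at 0 DPA, a difference of 0.68 on the log2 scale. Alignments that the counting tool set aside as not unique amounted to 1.88 per gene count at 12 DPA and 14.2 at 0 DPA. The fiber marker genes MYB25, MYB109, FSltp1, SCFP, CFE1 and FDH were present at both stages. Their summed mean was 17834 at 12 DPA and 1780 at 0 DPA, of which FSltp1 alone made up 11920 and 515. Of these markers, 6 of 6 were higher at 12 DPA, with log2 ratios between 1.68 (SCFP) and 4.53 (FSltp1). Beside them, 10688 of 21693 genes averaging 10 or more over both stages were higher at 12 DPA. The marker list was chosen with earlier results of these data known, so its direction is not independent evidence. Of the markers of embryo or seed, an oleosin averaged 2.40 at 12 DPA and 3.22 at 0 DPA, and a LEA protein averaged 9.45 and 0.844. The part of these differences in the results below was not tested.

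PRP3 was close to the limit of counting at 0 DPA and among the genes with high counts at 12 DPA. Its authors' mean was 646 normalized counts at 12 DPA and 1.66 at 0 DPA, a 390-fold ratio (log2 ratio 8.61, 95% counting interval 7.86 to 9.48). The counting interval comes from the reads behind both means and covers counting error only. By its mean PRP3 stood at percentile 96.4 of all genes at 12 DPA and at percentile 29.5 at 0 DPA.

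PRP5, a second fiber proline-rich protein, had a similar pair of levels. Its authors' mean was 735 at 12 DPA and 3.22 at 0 DPA, a 228-fold ratio (log2 ratio 7.84, counting interval 7.17 to 8.59). It stood at percentile 96.9 at 12 DPA and 34.0 at 0 DPA.

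The arabinogalactan protein was already at a middling level at 0 DPA and was among the most counted genes at 12 DPA. Its authors' mean was 9488 at 12 DPA and 48.3 at 0 DPA, a 196-fold ratio (log2 ratio 7.62, counting interval 7.38 to 7.87). It ranked 32 of 37500 genes by mean at 12 DPA, at percentile 99.9, and stood at percentile 62.8 at 0 DPA. Its 0 DPA mean was too high to be split into single reads, and between 142 and 483 reads lie behind it; the interval uses the smaller number.

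**Figure D1:**
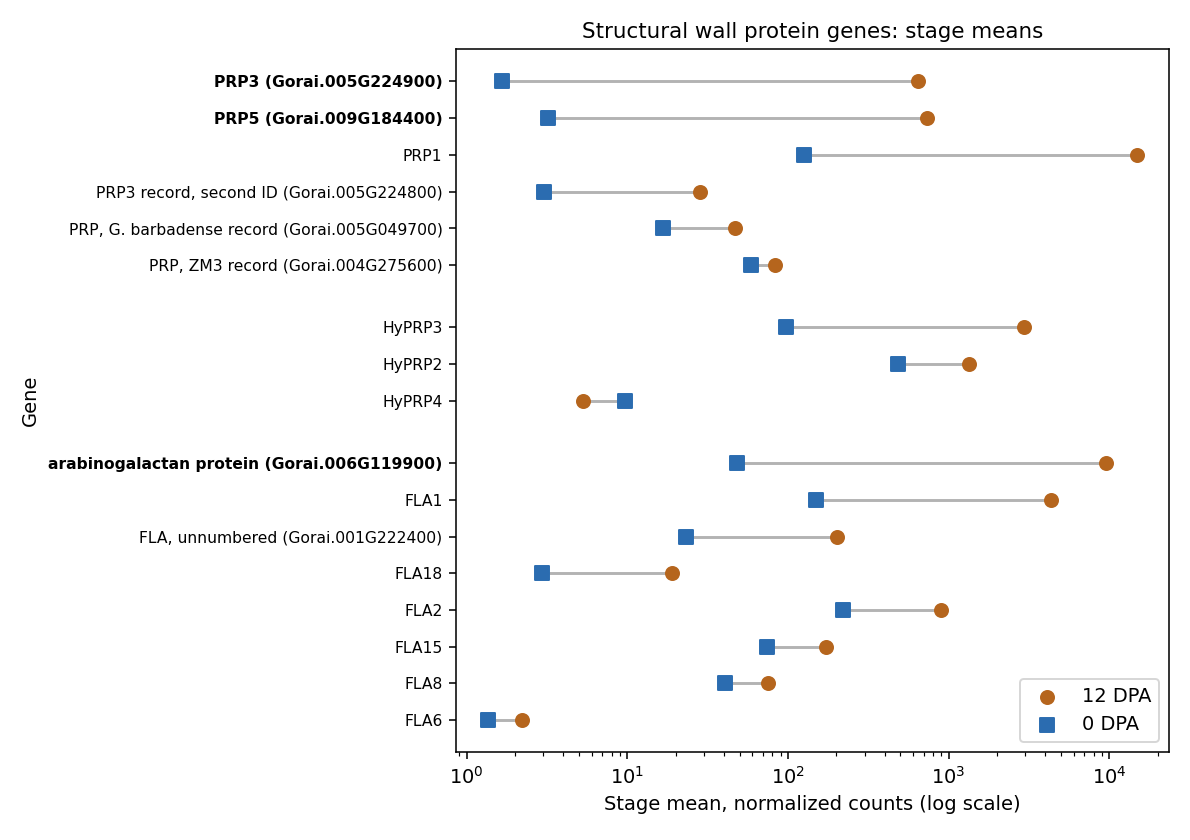
Authors' mean in normalized counts (horizontal axis, log scale) of the 17 named structural wall protein genes at 12 DPA (circles) and 0 DPA (squares), grouped as proline-rich, hybrid proline-rich and arabinogalactan proteins. The 3 genes in bold (PRP3, PRP5 and the arabinogalactan protein) were chosen by ratio and have the widest gaps of the 17. HyPRP4 is the gene with its 12 DPA mean below its 0 DPA mean. No error bars are drawn because the spread between lines is not given for these means.

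The 3 ratios were between 196-fold and 390-fold. PRP3 exceeded PRP5 by 0.77 on the log2 scale of the ratio, with a counting interval between -0.24 and 1.78 that includes 0. PRP3 exceeded the arabinogalactan protein by 0.99 (0.19 to 1.78), and PRP5 exceeded it by 0.22 (-0.49 to 0.93). These intervals of differences use a normal approximation, which is rough for the 14 reads of PRP3 at 0 DPA. Those of the single ratios are exact binomial intervals. Both kinds treat reads of all libraries alike and hold no spread between lines. The order also depends on how reads were divided between 2 IDs of the PRP3 record, described below. Summed over both IDs, the log2 ratio of that record was 7.17, below those of PRP5 and the arabinogalactan protein. Together the 3 genes summed to 10869 normalized counts at 12 DPA and 53.2 at 0 DPA, or 0.223% of the gene sum at 12 DPA and 0.00175% at 0 DPA.

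Against all genes, the 3 ratios were near the top, as the choice of the genes required. Of 21693 genes with a mean of at least 10 over both stages, 974 had a 12 DPA mean at least 8 times the 0 DPA mean (4.49%) and 252 had one at most 1/8 of it (1.16%). The median log2 ratio of these genes was -0.02. When the stage means were scaled to equal gene sums, 679 genes were at least 8-fold higher and 678 at least 8-fold lower, and the median became -0.70. The 3 genes were past 8-fold under both scalings, and nothing is read from that count because the ratio chose them. By ratio PRP3 ranked 37, PRP5 ranked 68 and the arabinogalactan protein ranked 78 of the 21693. In these ranks, genes with a 0 DPA mean of 0 have no finite ratio and stand above all others.

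**Figure D2:**
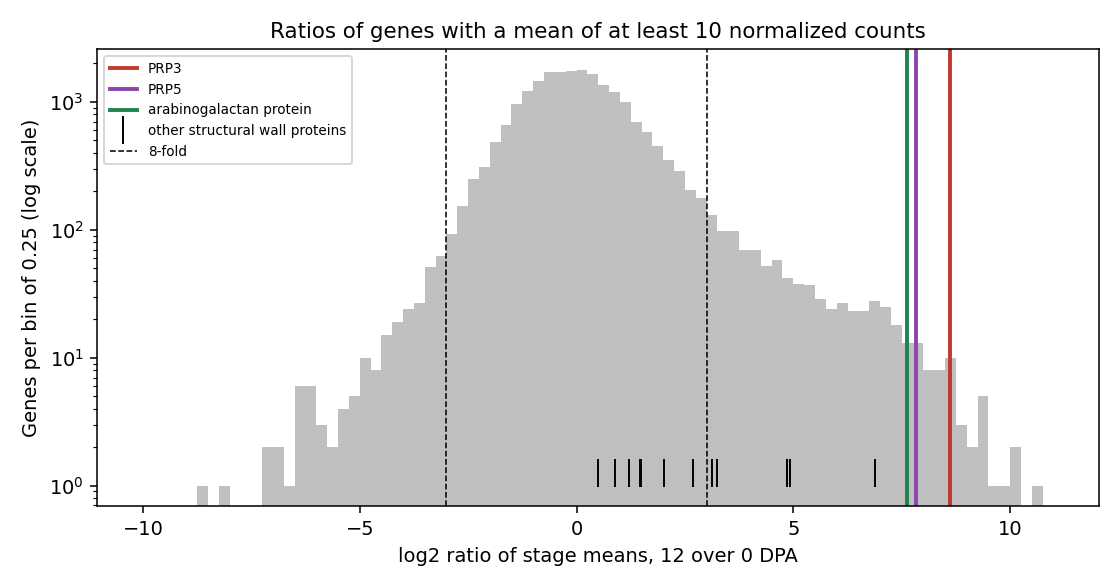
Number of genes (vertical axis, log scale) by log2 ratio of the 12 DPA mean over the 0 DPA mean (horizontal axis) for genes with a mean of at least 10; 21 genes at 0 at one stage have no finite ratio and are not drawn. Coloured lines mark PRP3 (8.61), PRP5 (7.84) and the arabinogalactan protein (7.62), short black ticks the other structural wall proteins, and dashed lines 8-fold in each direction.

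Few genes combined such a ratio with such a level at 12 DPA. Since the ratio chose the 3 genes, nothing is read from the counts that follow. The ratio of PRP3 rests on 14 reads at 0 DPA. Counting the gene itself, 3 genes had both a ratio and a 12 DPA mean at least as high as those of PRP3, 6 genes those of PRP5, and 2 genes those of the arabinogalactan protein. There were 1331 genes with a higher 12 DPA mean than PRP3, 1166 above PRP5 and 31 above the arabinogalactan protein.

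**Figure D3:**
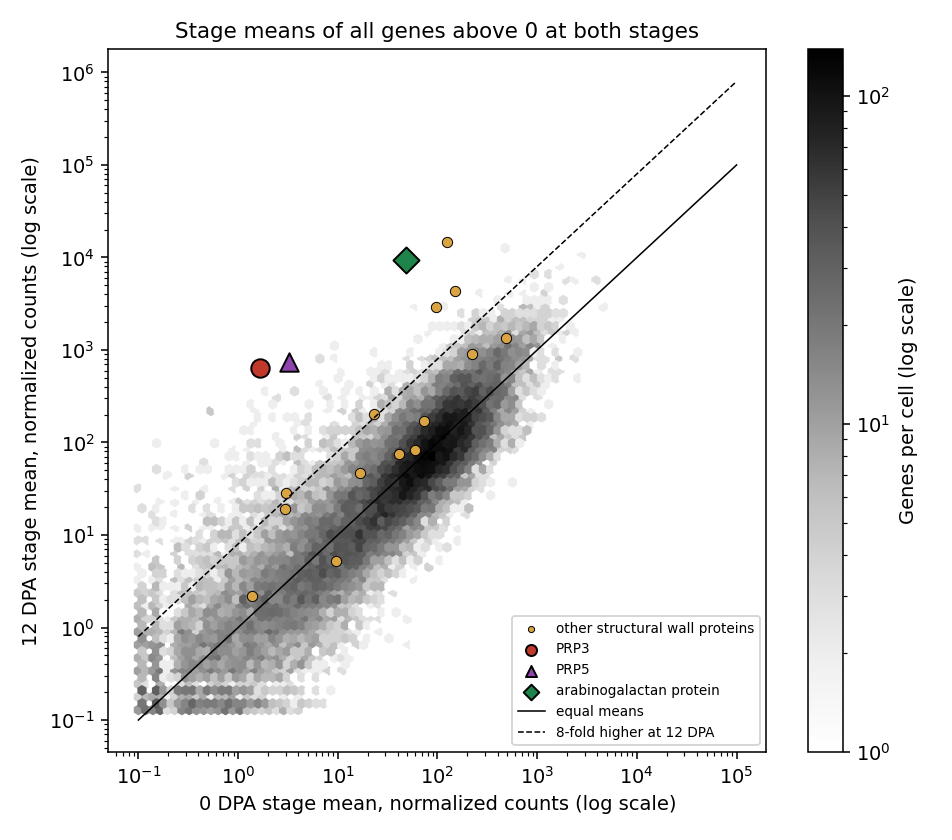
Authors' mean at 12 DPA (vertical axis) against that at 0 DPA (horizontal axis), both in normalized counts on log scales, for all genes above 0 at both stages; darker cells hold more genes. PRP3 (646 and 1.66) and PRP5 (735 and 3.22) lie side by side above the bulk of low genes, and the arabinogalactan protein (9488 and 48.3) lies at the upper edge near PRP1 (14775 and 126).

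The 0 DPA means of both proline-rich proteins rest on few reads, and those reads could be placed in single libraries. A low mean printed to many decimals is an average over libraries of whole reads, each divided by its library's size factor. A read thus adds least to the mean in the library with the largest size factor. Of 8654 means of up to 5 at 0 DPA, 8630 could be written in exactly 1 way. For the listed genes, means of up to 10 were also split, such as those of HyPRP4 (5.30 at 12 DPA and 9.63 at 0 DPA). That share does not cover them. The libraries so found were numbered from the largest size factor to the smallest and were not assigned to lines. The 0 DPA mean of PRP3 held 14 reads (exact Poisson 95% interval 7.65 to 23.5), with 9, 0, 3, 1, 1 and 0 reads in libraries 1 to 6. Library 1, with the largest size factor, held 64.3% of them, and 4 of 6 libraries had any. Per library PRP3 thus had 5.40, 0, 2.57, 0.959, 1.02 and 0 normalized counts at 0 DPA (mean 1.66 ± 2.06 SD, n = 6). The highest of these is far below the 12 DPA mean of 646. Without library 1 the 0 DPA mean of PRP3 fell to 0.910 and the log2 ratio was 9.47, and leaving out each of the other libraries in turn gave 8.34 to 8.77.

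PRP5 was more evenly spread. Its 0 DPA mean held 18 reads (exact Poisson 95% interval 10.7 to 28.4), with 3, 0, 4, 4, 4 and 3 reads in libraries 1 to 6, so that 5 of 6 libraries had at least 3. Per library this is 1.80, 0, 3.42, 3.84, 4.09 and 6.16 normalized counts (mean 3.22 ± 2.11 SD, n = 6). Leaving out each library in turn gave log2 ratios of 7.57 to 8.13. Library 2, with the next largest size factor, held no read of either PRP3 or PRP5. Of all 1941 genes with 10 to 20 reads at 0 DPA, 24.1% had reads in 6 libraries, 44.6% in 5 and 31.4% in 4 or fewer, with a median of 38.5% of the reads in the top library. Library 3 held 24.4% of the reads of all 8630 low genes, against 17.3% of the summed size factors.

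**Figure D4:**
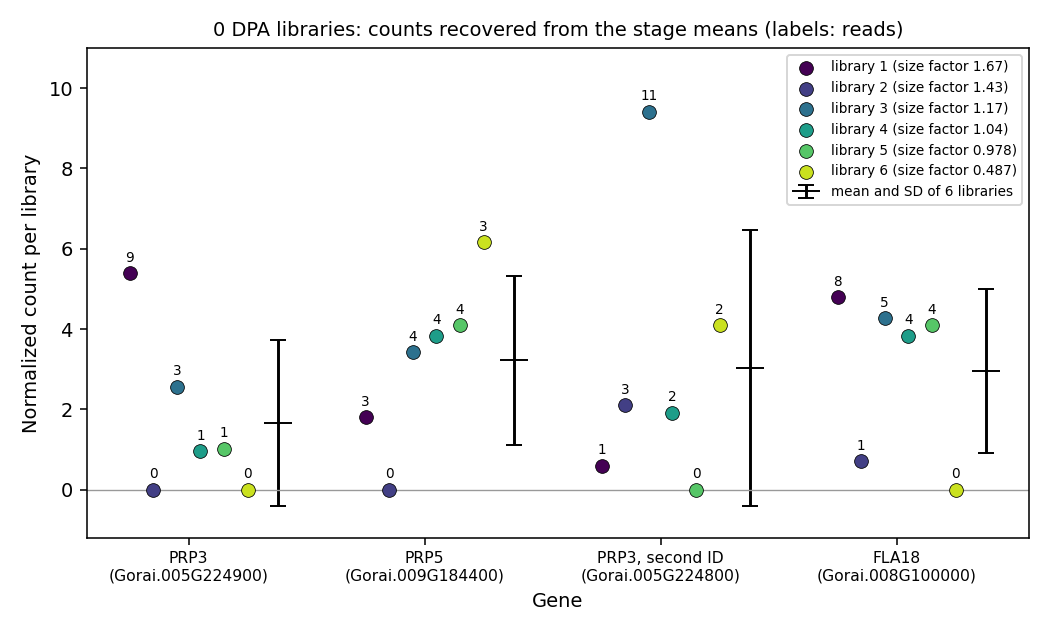
Normalized counts per 0 DPA library (vertical axis) of PRP3, PRP5, the second ID of the PRP3 record and FLA18, coloured by library from the largest size factor to the smallest; the number above each point is its reads, and the bar at the right of each gene is the mean with its SD over 6 libraries. PRP3 has 9 of its 14 reads in library 1, the second PRP3 ID has 11 of its 19 in library 3, and PRP5 has 3 or 4 reads in 5 libraries.

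Other proline-rich protein genes were then compared. The lists of related genes were drawn from the same supplementary tables, which mostly hold genes higher at 12 DPA in these libraries, so a list's direction is not independent evidence. Besides PRP3 and PRP5, 4 IDs had a proline-rich protein record. Of these 4, 2 were at least 8-fold higher at 12 DPA, beside 4.49% of all genes, and 0 were 8-fold lower, with a median log2 ratio of 2.36. Scaled by gene sums, 1 of the 4 was at least 8-fold higher, beside 3.13% of all genes. PRP1 (Gorai.005G049400), another proline-rich protein of fiber, averaged 14775 at 12 DPA and 126 at 0 DPA (log2 ratio 6.88) and ranked 16 of all genes by mean at 12 DPA. Gorai.005G049700, matched to a record of Gossypium barbadense, averaged 46.7 at 12 DPA and 16.6 at 0 DPA (log2 ratio 1.49). Gorai.004G275600, matched to a record named ZM3, averaged 83.0 at 12 DPA and 59.1 at 0 DPA, a log2 ratio of 0.49 that turned to -0.19 when scaled by gene sums.

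The PRP3 record was matched by a second ID, Gorai.005G224800, which directly precedes Gorai.005G224900 in ID order. It averaged 28.5 at 12 DPA and 3.02 at 0 DPA (log2 ratio 3.24, counting interval 2.54 to 4.01). Its 0 DPA mean held 19 reads, with 1, 3, 11, 2, 0 and 2 in libraries 1 to 6. Without library 3 that mean was 1.75 and the log2 ratio 4.03. Gorai.005G224900 held 95.8% of the summed mean of both IDs at 12 DPA and 35.4% at 0 DPA, where the second ID was thus the higher. Summed over both IDs, the PRP3 record stood at 675 at 12 DPA, against 4.68 at 0 DPA, a log2 ratio of 7.17. How reads were divided between near copies, or set aside as not unique, was not tested, and the division of PRP3 reads between both IDs is uncertain.

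Hybrid proline-rich proteins, which join a proline-rich part to a cysteine-rich domain, were named for 3 IDs. HyPRP3 averaged 2923 at 12 DPA and 96.9 at 0 DPA (log2 ratio 4.91), and HyPRP2 averaged 1333 and 484 (log2 ratio 1.46). HyPRP4 averaged 5.30 at 12 DPA and 9.63 at 0 DPA (log2 ratio -0.86). That difference turned round without 0 DPA library 3, which held 53 of its 71 reads: the 0 DPA mean was then 2.49 and the log2 ratio 1.09. Of the 3 IDs, 2 had a mean of at least 10, and 1 of these was at least 8-fold higher, beside 4.49% of all genes. Scaled by gene sums it was still 1, beside 3.13% of all genes.

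Among arabinogalactan proteins, the described gene had the largest ratio of 8 IDs, from which nothing is read because the ratio chose it. The other 7 were fasciclin-like. Of these, 6 had a mean of at least 10, and 2 of the 6 were at least 8-fold higher at 12 DPA, beside 4.49% of all genes, and 0 were 8-fold lower. Scaled by gene sums, 1 of the 6 was at least 8-fold higher, beside 3.13% of all genes. FLA1 averaged 4313 at 12 DPA and 150.0 at 0 DPA (log2 ratio 4.85), and an unnumbered fasciclin-like gene (Gorai.001G222400) averaged 203 and 23.2 (log2 ratio 3.13). FLA18 averaged 18.9 at 12 DPA and 2.95 at 0 DPA (log2 ratio 2.68), its 0 DPA mean being 22 reads in 5 of 6 libraries. FLA2, FLA15 and FLA8 had log2 ratios of 2.02, 1.22 and 0.89. FLA6 was near the limit of counting at both stages, with a mean of 2.198 from 15 reads at 12 DPA and 1.37 from 4 reads at 0 DPA, and its log2 ratio of 0.68 became -0.54 without 12 DPA library 1. All 4 of its 0 DPA reads were in library 6, without which the 0 DPA mean is 0. The 7 fasciclin-like genes had a median log2 ratio of 2.02.

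Over all 17 structural wall protein IDs, 16 were higher and 1 was lower at 12 DPA, with a median log2 ratio of 2.68. Beside them, 10688 of the 21693 genes that passed the minimum mean of 10 were higher and 11005 lower. Scaled by gene sums, 15 of the 17 IDs were higher and 2 lower, beside 6307 higher and 15386 lower of the 21693. The tally of 17 includes HyPRP4 and FLA6, both below that minimum, and each changed sign when 1 library was left out. Leaving out PRP3, PRP5 and the arabinogalactan protein, 5 of the 12 IDs with a mean of at least 10 were at least 8-fold higher, beside 4.49% of all genes, with a median log2 ratio of 1.75 over the 14 IDs. Scaled by gene sums, 3 of the 12 were at least 8-fold higher, beside 3.13% of all genes, and the median was 1.07. The minimum is a mean over both stages, so a gene low at 1 stage passes it only through the other. The second PRP3 ID (28.5 at 12 DPA, 3.02 at 0 DPA), 1 of the 5, passed only through 12 DPA. So did FLA18, which was below 8-fold. HyPRP4 (5.30 and 9.63) did not pass. In sum the 17 genes took 0.734% of the gene sum at 12 DPA and 0.0447% at 0 DPA. The wall-loosening and polysaccharide enzymes drawn from the same tables, among them expansins, xyloglucan endotransglycosylases, pectate lyases and cellulose synthases, had a median log2 ratio of 3.07 over 18 IDs. Of 16 with a mean of at least 10, 9 were at least 8-fold higher, beside 4.49% of all genes. Scaled by gene sums, 7 were, beside 3.13% of all genes. Some of the genes in both counts had 0 DPA means below 10 (0.762 to 9.70) and passed the minimum only through 12 DPA. Over the 18 IDs, the largest log2 ratio was 7.67, for an endo-xyloglucan transferase (Gorai.007G057400). The smallest was 1.21, for a cellulose synthase celA1 ID (Gorai.011G037900).

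Of the genes next to the 3 in ID order, Gorai.005G224800, just before PRP3, is the second ID of the PRP3 record described above (28.5 at 12 DPA, against 3.02 at 0 DPA). The remaining 5 had means below 10 at both stages. After PRP3, Gorai.005G225000 averaged 0.461 at 12 DPA and 0.602 at 0 DPA. Beside PRP5, Gorai.009G184300 was listed at 0 at both stages and Gorai.009G184500 averaged 9.33 and 4.54. Beside the arabinogalactan protein, Gorai.006G119800 averaged 0.896 at 12 DPA and 4.02 at 0 DPA, and Gorai.006G120000 averaged 2.05 and 1.06. The IDs on either side of PRP5 and of the arabinogalactan protein thus had far lower 12 DPA means than these genes.

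The genes most like each of the 3 were found by distance over both stage means on the scale of log2(mean + 1). Nearest to PRP5 was Gorai.006G100100 at a distance of 0.16 (means of 665 at 12 DPA and 3.42 at 0 DPA), followed by Gorai.010G057900 at 0.24 (712 and 2.59), which was also near PRP3 at 0.46. The next for PRP5 was Gorai.002G144400, whose record names a cyclin-dependent kinase inhibitor of the Siamese type, a class of cell cycle brakes (0.42, means of 708 and 4.64). Nearest to PRP3 were Gorai.003G007600 (0.34, means of 530.0 and 2.01) and Gorai.009G090700 (0.44, means of 488 and 2.00), neither with a named record. For the arabinogalactan protein they were Gorai.006G138900, matched to fiber protein Fb10 (0.32, means of 10569 and 58.9), Gorai.009G035800, matched to an auxin binding protein (0.40, means of 10132 and 36.5), and Gorai.005G233500, matched to an H6-like protein (0.47, means of 7294 and 59.1). The likeness is over 2 stage means only.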

How the data were processed

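RNA of 6 lines at 12 and 0 DPA was sequenced. The study's methods and the processing notes of the submitters name FastQC 0.10.1, Trimmomatic 0.32, TopHat with Bowtie2 2.2.4 against the G. raimondii genome, HTSeq 0.6.0 and DESeq 1.18.0 as the authors' tools. Whether counting used strand was not stated, so overlapping and antisense genes are not separated. Upland cotton carries a pair of subgenomes, and reads from both fall on 1 ID. The deposited signal is the authors' mean of normalized counts per stage; its columns are named RPKM, but low means split into whole reads without gene length. The authors' columns of fold, log2 fold, p-value and adjusted p were not used. Of 37505 entries, 5 are counting summaries and were left out.

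Computed here were ratios of stage means, percentiles, list counts and reads behind low means (tolerance 6e-10), with exact Poisson intervals. Splitting was tested on simulated data of 37500 genes: at 12 DPA 7516 of 7516 low means and at 0 DPA 7361 of 7361 were split right. This covered means of up to 5, and splitting of means between 5 and 10 was not tested. A count of 3 reads in the library with the smallest size factor gives a mean of 0.650 at 12 DPA and 1.03 at 0 DPA. No test between stages was run, since values per line were not analysed here. The text names the described genes, the other genes of the structural lists, the neighbouring IDs, the 3 nearest genes of each, and the extremes of the enzyme list. Members and lists were chosen with earlier results of these data known. The reference gene table matched 0 IDs, so no coordinates or sequences are given. Python 3.11.15, numpy 2.4.6, pandas 2.3.3, scipy 1.17.1 and matplotlib 3.10.9 were used. Alternatives were other scalings, pseudocounts, minimum means, fold limits and the gene set behind the percentiles.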

Additional observations from a re-analysis of the deposited data

Results flagged for a closer look

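For 8 pairs of a structural wall protein gene and a stage, reads per library were recovered, and in 3 of them 1 library stood far from the other libraries of its stage. The gap of the farthest library to its nearest neighbour was set against the range of all 6, with a limit of 0.625. Chance passes this limit in about 1 in 20 groups of normally distributed values, and its rate for a few reads with several zeros was not tested. HyPRP4 at 0 DPA had a gap of 0.841 of the range, with 45.4 normalized counts in library 3 and 0 to 7.20 in the other libraries. FLA6 had a gap of 0.713 at 12 DPA, where library 1 held 11 of 15 reads, and of 1 at 0 DPA, where library 6 held all 4 reads. PRP3 at 0 DPA, with 9 of 14 reads in library 1, was below the limit at 0.524, and PRP5 was at 0.336.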

How the results depend on the processing

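The stage means carry no error between lines, so no result was tested, and differences between lines were not analysed here. No paired analysis was possible because the deposited table gives 1 mean per stage. Of 81 alternative values, 2 changed sign and 21 others moved. A log2 ratio moved if it fell beyond the 95% interval for counting error of the value reported. A percentile moved if it fell beyond a 95% binomial interval that treats all genes as draws. That interval is narrow and holds no counting error of reads. A share or rank moved if it changed by over 1.5 times. The other 58 stayed within these limits, which for the log2 ratios of PRP3 and PRP5 are wide. Leaving out each recovered library in turn (chosen after seeing the data) gave log2 ratios of 8.34 to 9.47 for PRP3, 7.57 to 8.13 for PRP5, 2.97 to 4.03 for the second PRP3 ID, -1.63 to 1.09 for HyPRP4 and -0.54 to 0.95 for FLA6, which has no finite ratio without 0 DPA library 6. The sign changed for HyPRP4 without 0 DPA library 3 (1.09) and for FLA6 without 12 DPA library 1 (-0.54). Scaling by gene sums gave log2 ratios of 7.93 for PRP3, 7.16 for PRP5 and 6.94 for the arabinogalactan protein, by construction 0.68 lower. Among genes above 0 at either stage, the percentiles were 96.0 at 12 DPA and 21.0 at 0 DPA for PRP3, 96.5 and 26.1 for PRP5, and 58.3 at 0 DPA for the arabinogalactan protein, since fewer genes were ranked. The share of genes higher at 12 DPA was 9.20% at 4-fold, 2.66% at 16-fold, and at 8-fold 8.48% with no minimum mean. The share lower was 4.86% at 4-fold, 0.41% at 16-fold, and at 8-fold 6.60% with no minimum mean, 0.61% with a minimum of 50 and 3.13% scaled by gene sums, where 3.13% were higher. With a minimum mean of 50 the ranks by ratio were 14, 29 and 36 for PRP3, PRP5 and the arabinogalactan protein. Among genes above 0 at both stages, with no minimum mean, these ranks were 19, 50 and 61. The 0 DPA levels of PRP3 and PRP5 rest on 14 and 18 reads, so their counting error is large. Why these reads were few was not tested.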
